A study of Mus musculus with 16 samples.

Results

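Krüppel-like factors (Klf) are transcription factors with zinc fingers at their carboxyl end, and they bind GC-rich and CACCC elements of promoters. The 10 genes described here are Klf2, Klf3, Klf4, Klf5, Klf6, Klf7, Klf9, Klf10, Klf13 and Klf16, out of 18193 genes with a probe set of their own on the array. Klf2 was picked for its low signal in shSep15 cells relative to control cells, and the other 9 were taken as its family. The 10 genes had 34 probe sets among 45037 on the array, from 1 each for Klf2, Klf10 and Klf16 to 7 each for Klf3 and Klf9.

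Mouse CT26 colon carcinoma cells, a line from BALB/c mice, were stably transfected with one of 4 constructs and measured on 16 Affymetrix mouse whole-genome arrays, 4 per line. The shSep15 cells carried a hairpin against the selenoprotein Sep15 (gene symbol Selenof), the shTR1 cells one against thioredoxin reductase 1 (Txnrd1), the shTR1/shSep15 cells both, and the control cells the empty pU6-m3 vector. All 4 lines shared that vector and hygromycin selection, so the control also carried a transfected plasmid. The 4 arrays of a line came from different RNA samples, and nothing in the sources used here says whether these were separate cultures or clones, so p-values measure the spread between those samples, which may be technical. A hairpin's action and any difference between clones of a line cannot be told apart. The parts of the transcripts that the hairpins match are shown because they define the lines, 5′ to 3′.
shSep15 target in Sep15 cDNA: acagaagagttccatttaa
shTR1 target in TR1 cDNA: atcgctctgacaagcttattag

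Within the family, Klf2 is best known from blood vessels and T cells: flow induces it in endothelium through the Mek5, Erk5 and Mef2 kinase and factor chain, and it holds naive T cells quiescent. Klf4 and Klf5 are the members best known in the gut, where Klf4 marks differentiated epithelium and Klf5 dividing crypt cells. Klf6 and Klf10 are early-response genes, Klf10 being induced by transforming growth factor beta. Klf9, Klf13 and Klf16 belong to a subgroup that recruits Sin3a, and Klf3 is a repressor that recruits Ctbp. Klf7 is best known from neurons.

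The sequences before the start sites of Klf2, Klf7 and Klf6 are shown because the array signals of these genes differed most in pattern between the lines. Each run is the 250 bases before the RefSeq start on build GRCm38.p6, read in the gene's direction, and capitals mark GC boxes (searched as GGGCGG), the related boxes spelled CACCC and, in Klf2, the Mef2 consensus, all on both strands.
Klf2, chr8:72318812-72319061, plus strand: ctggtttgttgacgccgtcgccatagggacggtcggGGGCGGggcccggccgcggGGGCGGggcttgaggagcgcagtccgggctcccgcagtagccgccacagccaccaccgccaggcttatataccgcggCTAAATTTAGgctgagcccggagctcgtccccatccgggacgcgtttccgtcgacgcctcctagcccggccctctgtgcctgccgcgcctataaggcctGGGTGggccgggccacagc
Klf7, chr1:64121390-64121639, minus strand: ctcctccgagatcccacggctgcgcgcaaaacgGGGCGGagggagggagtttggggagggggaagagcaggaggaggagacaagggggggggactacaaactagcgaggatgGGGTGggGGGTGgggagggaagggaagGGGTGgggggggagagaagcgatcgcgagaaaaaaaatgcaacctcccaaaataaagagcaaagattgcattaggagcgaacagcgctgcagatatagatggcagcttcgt
Klf6, chr13:5861239-5861488, plus strand: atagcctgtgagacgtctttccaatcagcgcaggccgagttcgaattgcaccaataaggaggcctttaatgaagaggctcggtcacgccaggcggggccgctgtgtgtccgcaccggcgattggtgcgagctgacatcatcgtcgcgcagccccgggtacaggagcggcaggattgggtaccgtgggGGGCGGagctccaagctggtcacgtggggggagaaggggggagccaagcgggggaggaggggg

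Promoter sequence was matched for 7 of the 10 genes (Klf2, Klf3, Klf4, Klf6, Klf7, Klf9 and Klf13). The Klf2 window held 2 GC boxes, 1 CACCC box and 1 match to the Mef2 consensus, the palindrome CTAAATTTAG, which ended 108 bases before the start. Of these 7 windows, only that of Klf2 held the Mef2 consensus, which 2.92% of 32851 promoter windows of the same length held. The Klf7 window held 1 GC box and 3 CACCC boxes, and the Klf6 window 1 GC box and no CACCC box. GC boxes stood in 6 of the 7 windows and in 32.7% of all windows, and CACCC boxes in 5 of the 7 and in 52% of all windows. No 2 of these motifs overlapped in the printed windows. These matches describe letters only.

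Before the family is described, 2 facts about the arrays bear on it. The Selenof probe set read 8.02 to 8.29 in shSep15 cells and 7.34 to 7.86 in shTR1/shSep15 cells, against 10.78 to 11.57 in control cells (log2 signal, the scale of every level below). Txnrd1 read 7.84, 10.57, 7.89 and 9.71 in replicates 1 to 4 of the arrays labelled shTR1 and 7.18 to 7.91 in shTR1/shSep15 cells, against 9.45 to 10.39 in control cells, so that replicates 2 and 4 of the arrays labelled shTR1 lay in or above the control range. Control replicate 2 stood apart, with rank correlations of 0.943 to 0.962 with the other 15 arrays. All 12 genes of an immediate-early list, chosen after the values were seen, had their highest signal of the 16 arrays there: Fos read 13.52 in that array and 5.04 to 8.72 in the others, and Egr2 read 10.68 and 3.64 to 5.04. Within the shSep15 line, 10 of the 12 were highest in replicate 2, where Fos read 8.72. The family was also often extreme in these arrays, but high in control replicate 2 and low in shSep15 replicate 2. Of its 34 probe sets, 19 (55.9%) were highest in control replicate 2, against 13.7% of all probe sets, and 16 (47.1%) were lowest in shSep15 replicate 2, against 4.54%. The 19 include Klf2, which was selected on the shSep15 and control arrays, and otherwise belong to Klf4, Klf6, Klf7, Klf9 and Klf10. Probe sets of a gene are not independent, so these shares are descriptions. The part of the immediate-early difference in the family's values was not tested. For the family, the main counts and directions that change without control replicate 2 are given beside the results. For the other lists such changes are given for single genes alone.

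**Figure D1:**
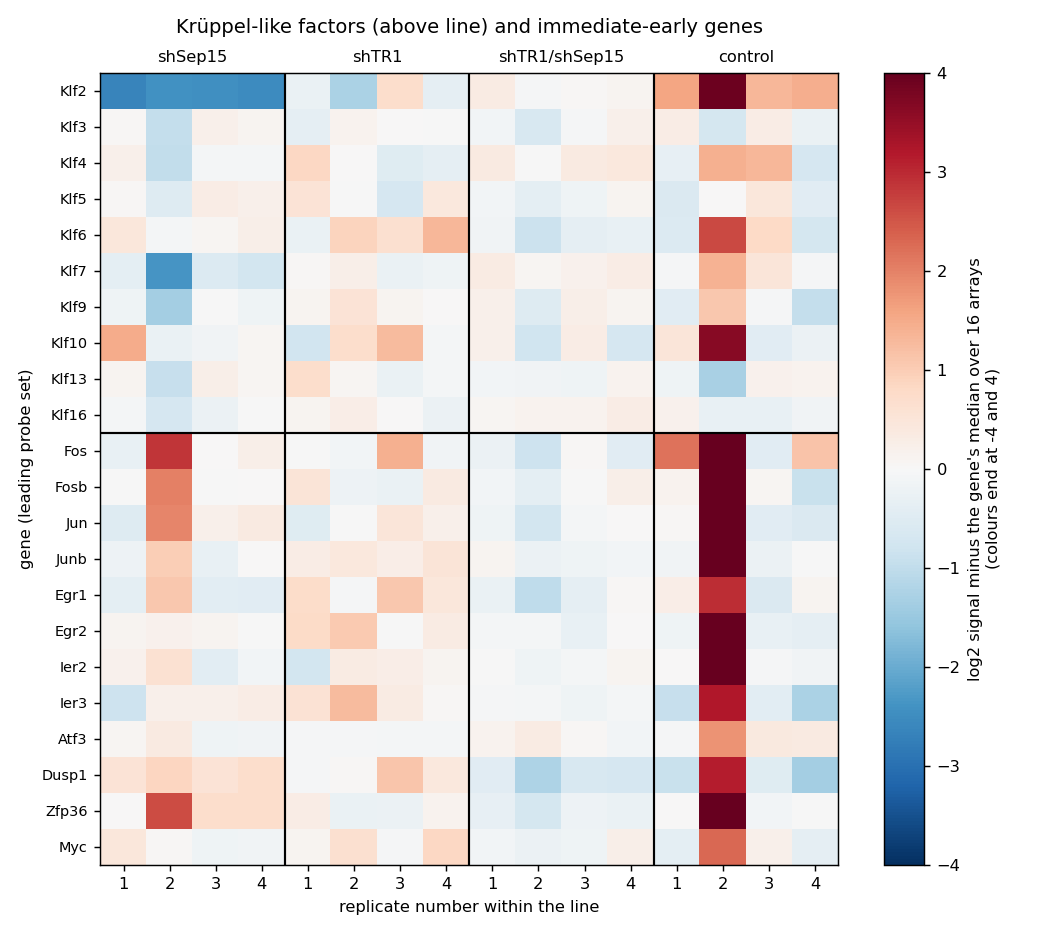
Log2 signal of the leading probe set of each gene minus that gene's median over the 16 arrays (colour), for the 10 Krüppel-like factors and 12 immediate-early genes (rows) in the replicates of each line (columns). Control replicate 2 holds the highest signal of all 12 immediate-early genes and of 6 of the 10 Krüppel-like factors, Klf2 among them.

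Klf2 had its lowest signal in shSep15 cells, where the 4 arrays read 4.41, 4.62, 4.60 and 4.55. The arrays labelled shTR1 read 6.78, 5.79, 7.74 and 6.68, the shTR1/shSep15 arrays 7.37, 7.02, 7.09 and 7.16, and the control arrays 8.64, 10.97, 8.37 and 8.52. Every control array lay above every array of the 3 hairpin lines, and every shSep15 array below all others. The ranges of the shTR1/shSep15 and shTR1 lines overlapped. The line means were 4.55 ± 0.10 in shSep15, 6.75 ± 0.80 in shTR1, 7.16 ± 0.15 in shTR1/shSep15 and 9.12 ± 1.24 in control cells (SD, n = 4 each). Klf2 was selected on the shSep15 and control arrays, so the differences from control are given without a test: -4.58 in shSep15, -2.38 in shTR1 and -1.97 in shTR1/shSep15 cells. Without control replicate 2, the array with the highest Klf2 signal, they were -3.96, -1.76 and -1.35. The shSep15 signals lay about the array medians of 4.45 to 4.58, and Klf2 was not shown to be above background there, so differences from the shSep15 line may be lower bounds in size. The signal in shTR1/shSep15 cells was 2.61 above that in shSep15 cells (both lines carried the Sep15 hairpin), and this too is a description. The arrays measured RNA of whole cultures, in which fewer cells with Klf2 RNA and less Klf2 RNA per cell cannot be told apart.

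**Figure D2:**
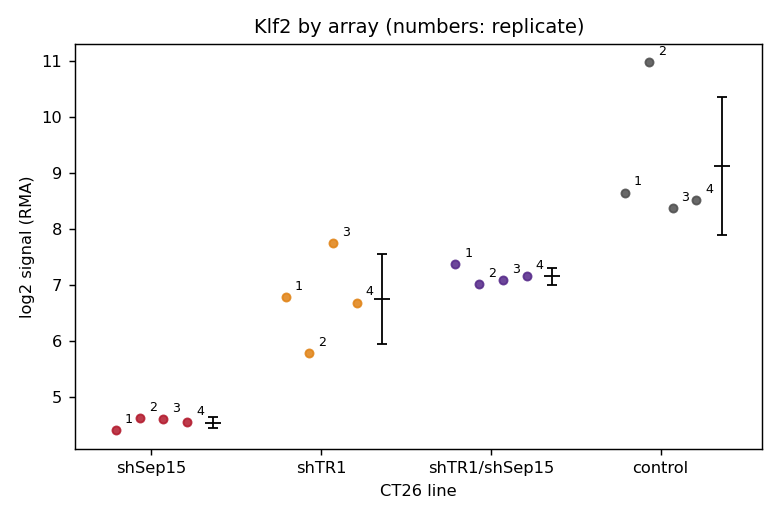
Klf2 log2 signal in each array (points, numbered by replicate) of the 4 CT26 lines, with the mean and SD of each line beside them. The shSep15 arrays sit between 4.41 and 4.62, below all others, and control replicate 2 stands at 10.97.

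The one comparison of Klf2 that its choice did not use was shTR1/shSep15 against shTR1 cells. The difference was 0.41 on the log2 scale (95% interval -0.62 to 1.43, adjusted p = 0.781 from limma), within the spread between arrays. Without replicates 2 and 4 of the arrays labelled shTR1, those with Txnrd1 in or above the control range, the difference was -0.10. It was 0.09 without replicate 2 alone and 0.74 without replicate 3 alone. The 6 genes measured nearest to Klf2 on chromosome 8 were Cib3, Fam32a and Ap1m1 on one side and Eps15l1, Calr3 and 1700030K09Rik on the other. In shSep15 against control cells their differences ran from -0.33 to 0.51, and 1 of the 6 passed, beside 1.97% of all probe sets. It was Eps15l1, an endocytic adaptor, which was higher in shSep15 cells (0.51, adjusted p = 0.0487 from limma). That call lay close to the threshold and was not checked with arrays left out. None of the 6 passed in shTR1 or in shTR1/shSep15 against control cells.

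By Pearson correlation with Klf2 over the 16 arrays, among the leading probe sets (a gene's brightest) of 18193 genes, the most alike included the zinc finger factor Gata2 (r = 0.921), Gldc, which splits glycine (0.918), the Golgi mannosidase gene Man1a (0.901) and the sulphotransferase gene Chst15 (0.882). The 3 most opposite were Alg5 (-0.952), which puts glucose on the dolichol lipid of N-glycosylation, the histone methyltransferase gene Setdb1 (-0.942) and Tpst1 (-0.937), which sulphates tyrosines of secreted proteins. Gata2 averaged 5.85 in shSep15, 6.47 in shTR1, 7.10 in shTR1/shSep15 and 7.56 in control cells, the same order of lines as Klf2. Alg5 averaged 9.51, 8.68, 8.35 and 7.94 in those lines, the reverse order. Both genes were picked for their correlation with Klf2 over these arrays, so such orders follow largely from that choice. Without control replicate 2, r was 0.913 for Gata2 and -0.924 for Alg5. Among the family, Klf7 came nearest to Klf2 (r = 0.735, and 0.621 without control replicate 2). No p is given for these correlations, since the 16 points share 4 lines and the same arrays.

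Klf7 had the next largest differences of the family in shSep15 cells. Its leading probe set read 8.06, 6.11, 7.91 and 7.72 in shSep15 cells, 8.50, 8.70, 8.20 and 8.31 in arrays labelled shTR1, 8.79, 8.55, 8.64 and 8.75 in shTR1/shSep15 cells and 8.41, 9.86, 8.94 and 8.43 in control cells. All 4 Klf7 probe sets gave the same picture: every shSep15 array lay below every control and every shTR1/shSep15 array, and they correlated at 0.946 to 0.975 with each other over the 16 arrays. Their differences in shSep15 against control cells ran from -1.61 to -1.46, with adjusted p from 0.0665 to 0.135 (limma), so none passed. In shTR1/shSep15 against shSep15 cells they ran from 1.12 to 1.46 (adjusted p from 0.112 to 0.267), again without passing. Replicate 2 of the shSep15 line was the lowest array for Klf7, 6.11 against 7.72 to 8.06 in the other 3, and control replicate 2 the highest. Without shSep15 replicate 2 the leading probe set differed by -1.01 between shSep15 and control cells (adjusted p = 0.0799), and without control replicate 2 by -1.14 (0.12). Leaving out control replicate 2 brought 2 of the 4 probe sets past the threshold in shTR1/shSep15 against shSep15 cells, the leading one at 1.23 (adjusted p = 0.0433). In that fit 2239 of all probe sets passed there, against 1196 with all arrays.

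Klf6 followed another pattern, with lower mean signals in shTR1/shSep15 cells than in either single hairpin line. Its probe set 1418280_at read 7.37, 5.39, 6.95 and 6.64 in shTR1/shSep15 cells, below 8.51, 7.70, 8.06 and 7.85 in shSep15 cells and 8.29, 8.003, 8.86 and 8.997 in arrays labelled shTR1. Control cells read 7.48, 11.01, 8.10 and 6.90, with replicate 2 above every other array of the 16. Against shTR1 cells the 5 Klf6 probe sets were lower in shTR1/shSep15 cells by 1.04 to 1.95 on the log2 scale, and for 4 of the 5 no array overlapped. The adjusted p ran from 0.313 to 0.539 (limma), so none passed. Without control replicate 2 the SE of 1418280_at between shTR1/shSep15 and shTR1 cells was 0.38, against 0.68 with it, and the probe set passed there (-1.95, adjusted p = 0.0469) and against shSep15 cells (-1.44, 0.0434), although that array was in neither pair of lines. In that fit 176 and 2239 of all probe sets passed in these comparisons, against 33 and 1196 with all arrays. The Klf6 differences from control also depended on control replicate 2. In shSep15 against control cells all 5 probe sets were lower with that array and higher without it, the leading one by -0.38 and 0.32. In shTR1/shSep15 against control cells the 5 ran from -1.78 to -0.56 with it and from -0.90 to 0.11 without it, and 1 of them was then higher. In shTR1 against control cells all 5 were higher, by 0.10 to 0.60 with it and by 0.80 to 1.35 without it. None of the 5 passed there without it (smallest adjusted p = 0.0856 from limma). The probe sets 1447448_s_at and 1459718_x_at carry the manufacturer's marks for probes shared with other transcripts, so they are the less certain of the 5.

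**Figure D3:**
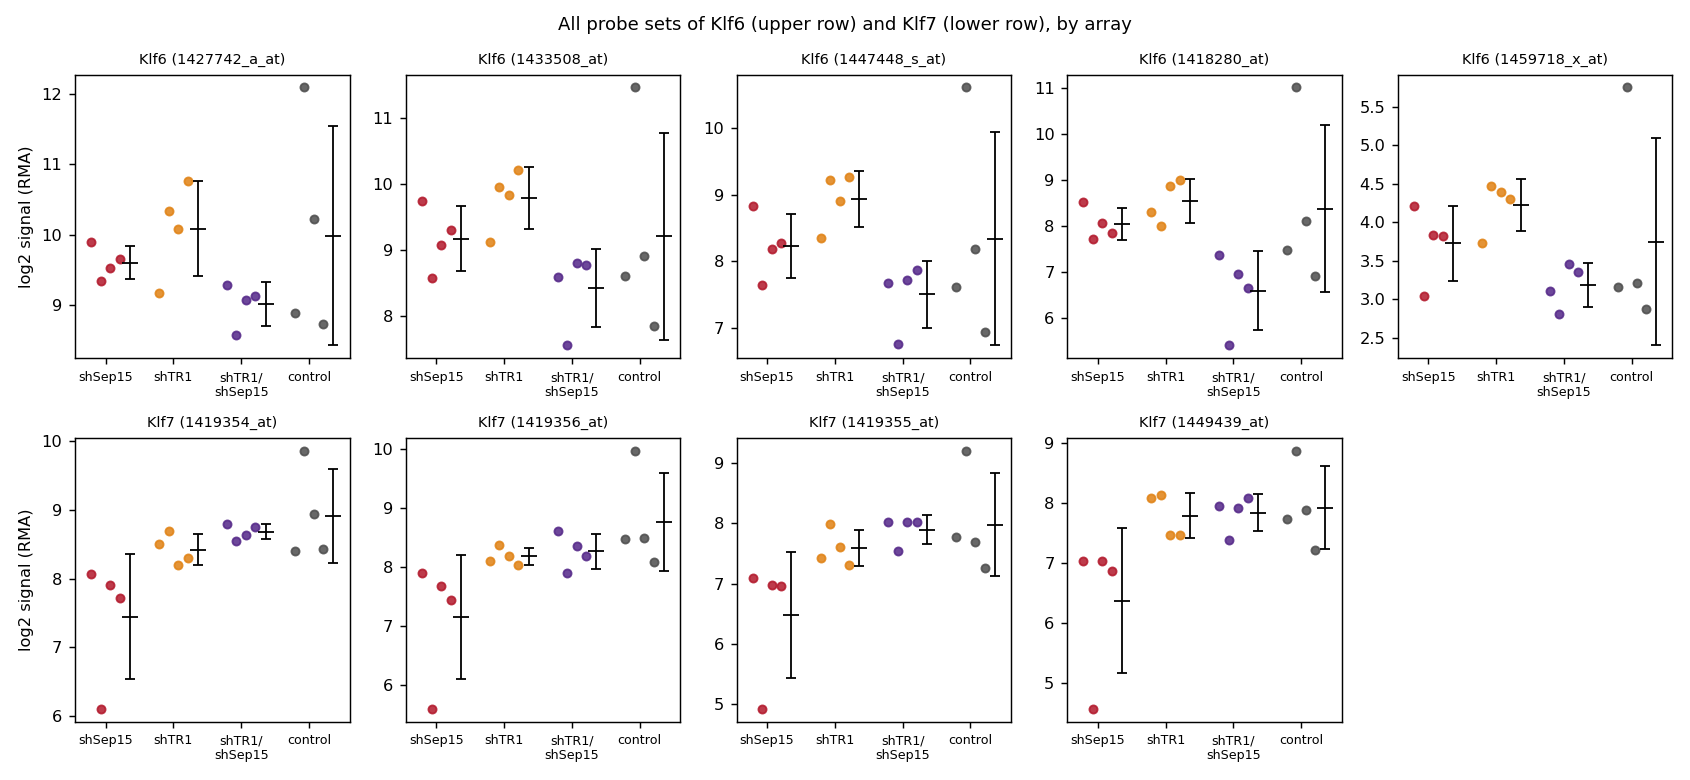
Log2 signal of each of the 5 Klf6 probe sets (upper row) and 4 Klf7 probe sets (lower row) in every array (points), with the mean and SD of each line beside them. The shSep15 arrays lie lowest for Klf7, with replicate 2 at 6.11 in the leading probe set, and the shTR1/shSep15 arrays lie below those of shTR1 for 4 of the 5 Klf6 probe sets.

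The gut members Klf4 and Klf5 did not separate the lines. Klf4 read 9.73, 8.56, 9.47 and 9.46 in shSep15, 10.36, 9.57, 9.07 and 9.19 in shTR1, 9.89, 9.52, 9.89 and 9.97 in shTR1/shSep15 and 9.20, 10.97, 10.86 and 8.87 in control cells. Its control arrays fell into a higher and a lower pair that spanned nearly all other arrays. The difference in shSep15 against control cells was -0.67 (95% interval -1.61 to 0.27, adjusted p = 0.592 from limma), and the second Klf4 probe set gave -0.78. Without control replicate 2 these were -0.34 and -0.46, and in shTR1/shSep15 against control cells the leading probe set gave -0.16 with that array and 0.17 without it. Klf5 read 9.26 to 10.05 in shSep15, 9.08 to 10.31 in shTR1, 9.39 to 9.89 in shTR1/shSep15 and 9.20 to 10.23 in control cells, all overlapping. Its largest difference from control was 0.21, in shTR1 cells (95% interval -0.38 to 0.79, adjusted p = 0.758). The 3 Klf5 probe sets did not follow one another (r from -0.574 to -0.0535), so the gene rests on its leading one.

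Klf10 read 8.64, 6.87, 7.01 and 7.22 in shSep15, 6.39, 7.84, 8.40 and 7.07 in shTR1, 7.36, 6.34, 7.43 and 6.49 in shTR1/shSep15 and 7.62, 10.80, 6.71 and 6.91 in control cells. Apart from control replicate 2 the lines overlapped throughout. Its difference in shTR1/shSep15 against control cells was -1.10 with that array (adjusted p = 0.76 from limma) and -0.17 without it, and in shSep15 against control cells -0.57 with it and 0.36 without it. Klf10 and Klf6 had correlated signals over the 16 arrays (r = 0.75), and less so without control replicate 2 (0.408).

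Klf9, Klf13 and Klf16 differed less between lines than Klf7. The leading Klf9 probe set averaged 10.30 ± 0.62 in shSep15, 10.92 ± 0.24 in shTR1, 10.73 ± 0.34 in shTR1/shSep15 and 10.63 ± 0.87 in control cells (SD, n = 4 each), with shSep15 replicate 2 at 9.38. All 7 Klf9 probe sets were higher in shTR1/shSep15 than in shSep15 cells, by 0.12 to 0.75, and 3 of them without overlap, while none passed (smallest adjusted p = 0.217 from limma, for 1436952_at). That probe set passed without control replicate 2 (0.61, adjusted p = 0.0403), with the compared lines alone (0.0216) and with array weights (0.00499), and 1436763_a_at in the last 2 of these (0.0374 and 0.0238). Of all probe sets 2239, 3753 and 5525 passed in those fits, in that order, against 1196 in the main fit. In shSep15 against control cells the leading Klf9 probe set differed by -0.34 with control replicate 2 and by 0.06 without it. Klf13 averaged 8.02 ± 0.54 in shSep15, 8.26 ± 0.43 in shTR1, 8.08 ± 0.15 in shTR1/shSep15 and 7.86 ± 0.69 in control cells, and its low arrays were shSep15 replicate 2 (7.21) and control replicate 2 (6.85). It differed by 0.17 in shSep15 against control cells with control replicate 2 and by -0.17 without it. Klf16 read 6.35, 6.41, 6.39 and 6.57 in shTR1/shSep15 cells, above the 6.18, 5.599, 6.03 and 6.25 of shSep15 cells, by 0.41 (95% interval 0.09 to 0.74, adjusted p = 0.203). Klf3 averaged 9.17 ± 0.54 in shSep15, 9.27 ± 0.21 in shTR1, 9.17 ± 0.35 in shTR1/shSep15 and 9.24 ± 0.48 in control cells. Its 7 probe sets correlated at -0.435 to 0.775, and in shSep15 against control cells they ran from -0.54 to -0.07.

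**Figure D4:**
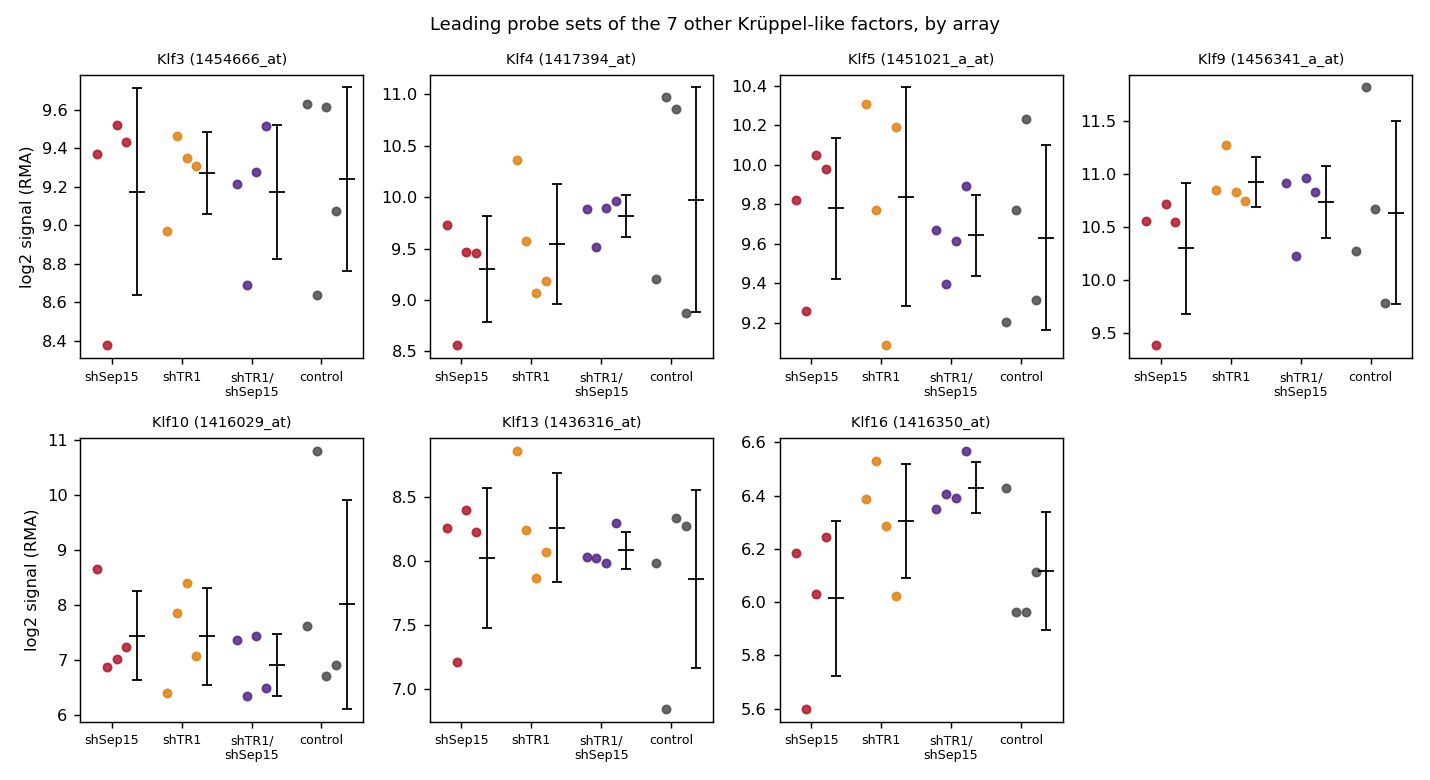
Log2 signal of the leading probe sets of Klf3, Klf4, Klf5, Klf9, Klf10, Klf13 and Klf16 in every array (points), with the mean and SD of each line beside them. The lines overlap except Klf16 in shTR1/shSep15 against shSep15 cells and Klf9 in shSep15 against shTR1 cells, and control replicate 2 stands at 10.80 for Klf10 while shSep15 replicate 2 is the lowest array for Klf3, Klf4, Klf9 and Klf16.

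Counted over the 33 probe sets of the 9 genes other than Klf2, none passed an adjusted p of 0.05 in limma, nor in the per-gene analysis of variance of the study's methods with the same adjustment, in any of 6 comparisons. In shSep15 against control cells 1.97% of all probe sets passed, 31 of the 33 were lower and 2 higher, and their median was -0.26, beside -0.03 over all probe sets. That tally rested on a pair of arrays: without control replicate 2, 20 were lower and 13 higher (median -0.11, beside -0.02 over all), and without shSep15 replicate 2, 22 were lower and 11 higher (-0.18, beside -0.04). With all arrays 5 of the 33, 4 of Klf7 and 1 of Klf3, had an unadjusted p under 0.05 (limma) and were lower, beside 12.7% of all probe sets. The 4 Klf7 probe sets were also the ones whose arrays did not overlap, 4 of 33 beside a background of 6.42%. These 4 share a gene and are not independent.

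In shTR1 against control cells 0.18% of all probe sets passed, and the 33 had a median of 0.05, beside -0.04 over all. A Klf3 probe set alone had an unadjusted p under 0.05, beside 11.8% of all probe sets, and in no probe set did the arrays separate, beside 4.22%. Without control replicate 2 the unadjusted count was 9 and the median 0.12, beside -0.03 over all, and none of the 33 passed. In that fit the unadjusted share of all probe sets was not counted, so the 9 is not a result about the family. Between shTR1/shSep15 and control cells 0.0244% of all probe sets passed, and the median of the 33 was -0.07, beside -0.01. Klf6 1418280_at alone had an unadjusted p under 0.05 (lower), beside 8.14% of all probe sets, and no probe set separated, beside 4.93%. With all arrays 13 of the 33 were higher and 20 lower there, and without control replicate 2, 18 were higher and 15 lower (median 0.01, beside -0.01 over all). The unadjusted count was then 3, and again that share of all probe sets was not counted.

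In shTR1/shSep15 against shSep15 cells 2.66% of all probe sets passed, 23 of the 33 were higher, and their median was 0.27, beside 0.02 over all. An unadjusted p under 0.05 was reached by 7, all higher: 4 of Klf7 and 1 each of Klf3, Klf9 and Klf16, beside 13.3% of all probe sets. The unadjusted count was 14 without control replicate 2, and 4 passed. In that fit 2239 of all probe sets passed, against 1196 with all arrays, and the share of all at an unadjusted p under 0.05 was not counted. The arrays separated in 11 of the 33, with 9 higher and 2, both of Klf6, lower, beside 14.6% of all probe sets. Between shTR1/shSep15 and shTR1 cells 0.0733% of all probe sets passed, and the median of the 33 was 0.07, beside 0.03. Here 4 Klf6 probe sets were lower and 1 of Klf3 higher at an unadjusted p under 0.05, beside 10.4% of all probe sets, and the same 4 of Klf6 separated, beside 8.08%.

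Whether the double line differed from the sum of the single hairpins' differences was asked by the interaction term. Of all probe sets 2.85% passed, and 16% had an unadjusted p under 0.05. Of the 33, 6 had one, 4 of Klf7 and 2 of Klf3, all with signals in shTR1/shSep15 cells above the sum. The leading Klf7 probe set gave 1.72 (SE 0.53, adjusted p = 0.109 from limma). Without control replicate 2, 4 of the 5 Klf6 probe sets passed in the other direction, from -2.48 to -1.69 (adjusted p from 0.0119 to 0.0273). In that fit 2340 of all probe sets passed, against 1282 with all arrays.

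**Figure D5:**
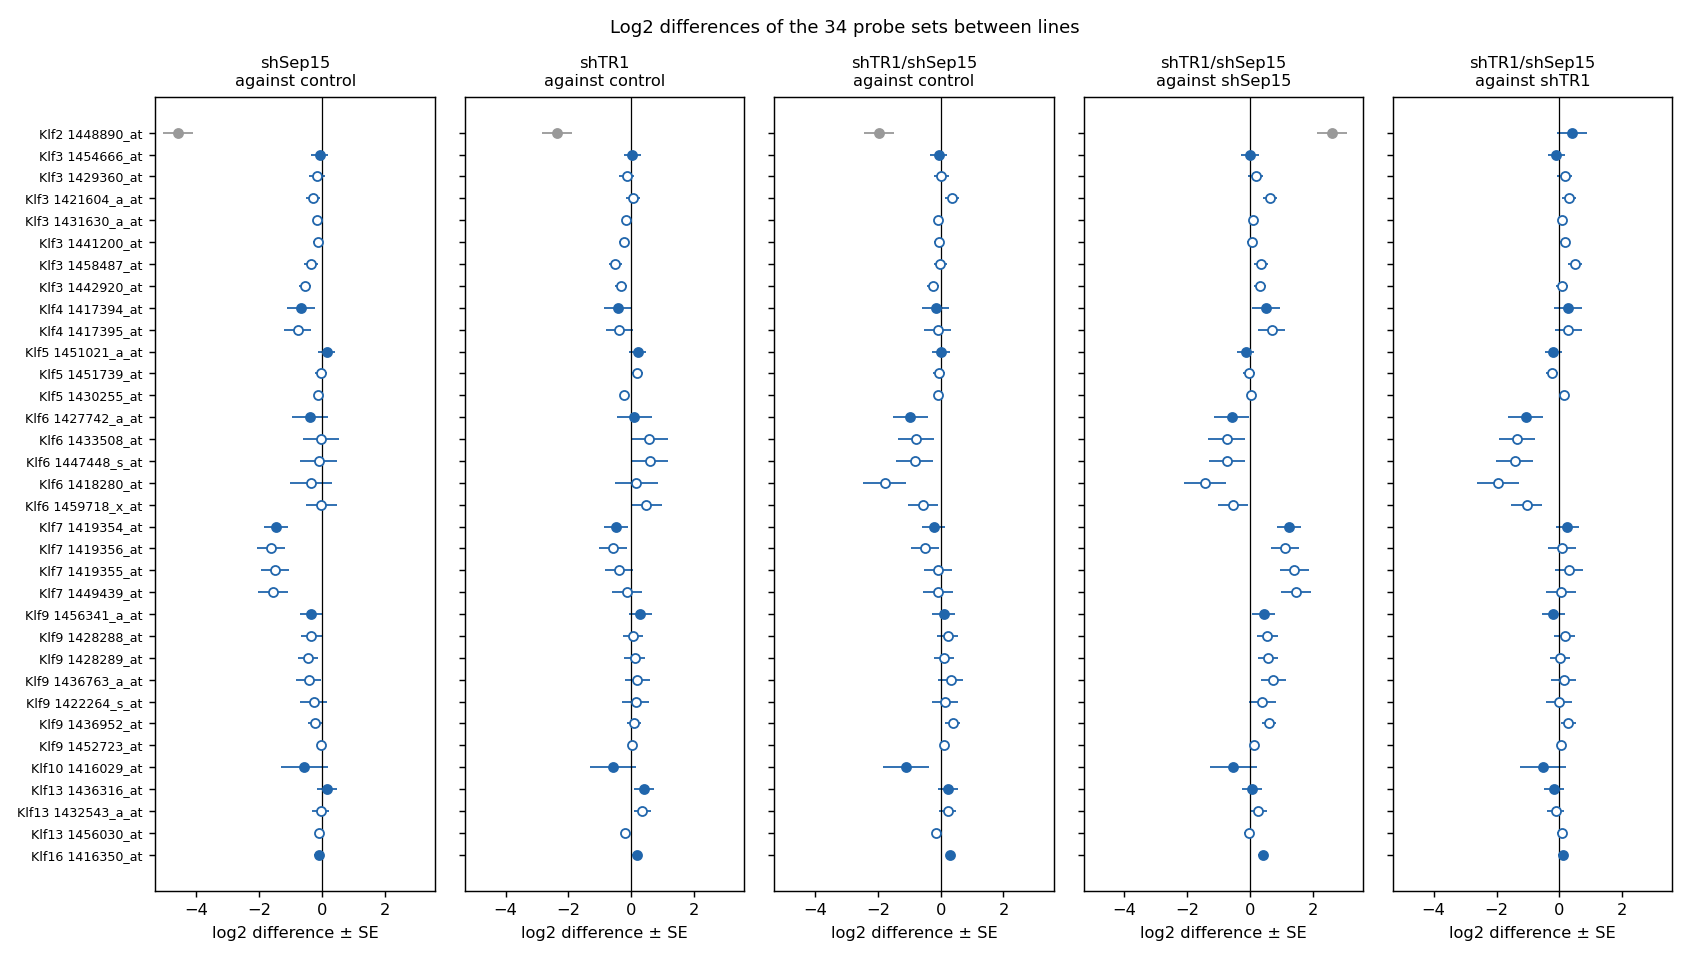
Log2 difference (points, bars are the SE) of each of the 34 probe sets in 5 comparisons of lines, with leading probe sets filled and Klf2 differences that were not tested in grey. Klf2 stands at -4.58 in shSep15 against control cells, the 4 Klf7 probe sets between -1.61 and -1.46 there, and the 5 Klf6 probe sets between -1.95 and -1.04 in shTR1/shSep15 against shTR1 cells.

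Of 13 known regulators of Klf2, none passed in shSep15 or shTR1 cells against control cells. Mef2a, a Mef2 factor that activates Klf2 in endothelium, read 7.71, 6.41, 7.60 and 7.19 in shTR1/shSep15 cells, against 9.33, 8.99, 8.78 and 8.79 in shSep15 cells. Its log2 difference between these lines was -1.75 (SE 0.33, adjusted p = 0.011 from limma), the only one of the 13 to pass in any comparison with all arrays, between lines where Klf2 was 2.61 higher in shTR1/shSep15 cells. The kinase genes Map3k3, Map2k5 and Mapk7 and the repressor gene Ezh2 did not pass in any comparison. The factor gene Foxo3 passed between the same lines without control replicate 2 (adjusted p = 0.00975, against 0.504 with it).

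Among 16 measured cofactors and ubiquitin ligases of the family, 1 passed in shSep15 against control cells. It was Hdac3, a histone deacetylase, with a log2 difference of -0.83 (SE 0.16, adjusted p = 0.0161 from limma). Hdac3 rose by 1.17 in shTR1/shSep15 against shSep15 cells (adjusted p = 0.00177) and Fbxw7, a ubiquitin ligase subunit that targets Klf5 and Klf2, fell by 0.99 (adjusted p = 0.0246). With 1 array left out at a time, the Hdac3 difference from control lost its call in 3 of 16 fits (adjusted p up to 0.0636) and the fall of Fbxw7 lost it in 5 (up to 0.0749), while the Hdac3 rise kept its call in all 16. The 13 measured Klf and Sp relatives held no call in any comparison, with a median of -0.19 in shSep15 against control cells, beside -0.03 over all probe sets.

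None of 12 measured Klf2 target genes passed in any comparison with all arrays. Without control replicate 2, Vcam1 (-0.87, adjusted p = 0.0322 from limma) and Sele (1.07, 0.0495) passed in shTR1/shSep15 against shSep15 cells, in opposite directions. In shSep15 against control cells 3 were higher and 9 lower, with a median of -0.16 beside -0.03 over all probe sets. That tally holds control replicate 2 and is not given without it. The list also holds genes that Klf2 represses in endothelium (Ccl2, Vcam1 and Sele, below), so its tally has no single direction for Klf2. The targets named next were chosen after their values were seen. Nos3 (endothelial nitric oxide synthase) read 5.62 to 6.06 in shSep15 and 5.73 to 5.998 in control cells, and Thbd (thrombomodulin) 4.21 to 4.59 and 4.19 to 4.40. Itgb7, a lymphocyte integrin chain, read 7.22 to 7.82 in shSep15 and 8.13 to 9.91 in control cells, with every control array above. Ccl2, Vcam1 and Sele, adhesion and chemokine genes that Klf2 represses in endothelium, were highest in control replicate 2, at 13.19, 11.52 and 8.86. In the other control arrays Ccl2 read 5.60 to 6.02, Vcam1 7.775 to 8.35 and Sele 4.32 to 4.71. In shSep15 cells they read 4.83 to 5.875, 8.33 to 9.02 and 4.55 to 5.61. Of 13 measured genes tied to Klf4 and Klf5 in the gut, none passed in any comparison.

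The labelled cell type was checked by markers. Epcam read 5.44 to 6.59 and Cdh1 2.31 to 2.80 over the 16 arrays, and the mesenchymal gene Vim 12.28 to 13.28. The defining epithelial junction gene Cdh1 was thus under the array medians of 4.45 to 4.58 in every array. Of the endothelial and leukocyte markers, which include those of cells with high Klf2, Pecam1 read 2.98 to 3.48 and Ptprc 2.42 to 3.09, while Kdr read 5.36 to 5.90, Cd3e 5.12 to 5.83 and Csf1r 5.08 to 6.05. In every array 5 of 7 endothelial markers lay under the array median and 2, Kdr and Esam, above it. Of 7 leukocyte markers 3 lay under it in every array and 3, Cd3e, Lyz2 and Csf1r, above. None of these 14 markers passed in any comparison. The mean signal of the 7 endothelial markers was 3.87 to 3.92 in shSep15 and 3.86 to 4.09 in control cells. Of the 9 colon markers, Krt20 and Krt18 fell in shSep15 against control cells, by 3.28 and 2.68 on the log2 scale (adjusted p = 0.00155 and 0.039 from limma), and so did 1 of 5 mesenchymal markers, Col3a1, by 3.04 (adjusted p = 0.0307). With 1 array left out at a time, Krt20 kept its call in all 16 fits, while Krt18 lost it in 13 (adjusted p up to 0.129) and Col3a1 in 6 (up to 0.0985). Krt20 read 4.76 to 5.32 in shSep15 cells and 7.55 to 9.49 in control cells. Its arrays read 7.15 to 9.24 in shTR1 and 7.95 to 9.06 in shTR1/shSep15 cells, overlapping control, where those of Klf2 did not. Over all 9 colon markers the mean signal was 4.14 to 4.35 in shSep15 and 4.75 to 5.32 in control cells, and over the 5 mesenchymal markers 7.52 to 7.80 and 8.24 to 9.15. In shSep15 against control cells all 9 colon markers were lower, but with a median of only -0.20. Of the 5 mesenchymal markers 3 were lower and 2 higher (median -0.29), and Fn1 read 10.47 to 11.73 in shSep15 and 9.81 to 10.68 in control cells. The part of these genes in the Klf2 and Klf7 differences was not tested.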

How the data were processed

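Total RNA of the 16 arrays was processed by the authors with robust multi-array analysis (RMA), and the deposited table holds log2 signals of 45101 probe sets; the RMA software version is not given in the sources used here. The 64 manufacturer's controls were left out. The 45037 others were fitted with limma 3.58.1 in R 4.3.3 (lmFit and eBayes, a mean for each line, 12 residual degrees of freedom), with Benjamini-Hochberg adjustment over all of them and a threshold of 0.05, and 95% intervals from the same fit. The number of arrays, 4 per line, limits the precision. The fit was tested on simulated data.

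Gene symbols came from the platform annotation: 34945 probe sets had 1 symbol, 932 several and 9160 none, and 34741 were updated through the gene number to RefSeq of GRCm38.p6. The leading probe set of a gene has the highest mean over the 16 arrays. All probe sets of the members were used. Of each other list, genes past the threshold are named first. One of the 5 genes most like Klf2 is not reported here. Genes of the lists without a probe set of their own symbol were not analysed here. Members and lists were chosen with earlier results of these data known. Alternatives were an intensity trend, bright probe sets alone, median centring, quantile normalization, the compared lines alone, the methods' ANOVA with the same adjustment, a replicate block, array weights and left-out arrays. Promoter windows and start sites came from RefSeq. Figures were drawn with matplotlib 3.10.9.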

Additional observations from a re-analysis of the deposited data

Results flagged for a closer look

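Of 40 groups of 4 arrays (the leading probe sets of the 10 genes in 4 lines), 5 held an array whose gap to its nearest neighbour was most of the group's range (above Dixon's critical value), and of 136 groups over all 34 probe sets 17 did. Chance gives about 1 group in 20 for independent groups. These groups share arrays, and probe sets of a gene repeat each other. The share of such groups over all probe sets was not counted, so the excess is not a result about the family. Klf2 read 10.97 in control replicate 2, against 8.37 to 8.64 in the other 3 control arrays. In the shSep15 line replicate 2 was the low array for 3 genes: Klf3 read 8.38 there, against 9.37 to 9.52 in the others, Klf9 9.38, against 10.54 to 10.72, and Klf13 7.21, against 8.22 to 8.40. In the shTR1/shSep15 line Klf13 read 8.30 in replicate 4, against 7.98 to 8.03 in the others. No member had signals above control in one hairpin line and below it in another with all arrays apart.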

How the results depend on the processing

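The count of 0 member probe sets among the 33 other than Klf2 held under most alternatives. In shSep15 against control cells 1 passed with bright probe sets alone (28 of the 33 in the fit) and 1 after further quantile normalization, both times Klf7 1419354_at. Of all probe sets in those fits 885 and 870 passed. The first fit held only the probe sets with a mean signal above the median and the second all 45037, so the share was larger in the first. In shTR1/shSep15 against shSep15 cells 3 passed when the fit held those lines alone, beside 3753 of all 45037 probe sets. With array weights 9 passed there, beside 5525 of all. In shTR1/shSep15 against shTR1 cells 1 passed with array weights, beside 1084 of all, and for the interaction term 3, beside 4462. Leaving out 1 array at a time gave 0 to 4 in shTR1/shSep15 against shSep15 cells, 0 to 1 in shTR1/shSep15 against shTR1 cells and 0 to 4 for the interaction term, the upper value each time without control replicate 2, and 0 throughout in the 3 comparisons with control. Without control replicate 2, 2239, 176 and 2340 of all probe sets passed in the 3 comparisons named first. With all arrays these were 1196, 33 and 1282. An alternative chosen after seeing the data left out the array of lowest weight in each line (control 2, shSep15 2, shTR1 1 and shTR1/shSep15 2). With it 3, 3 and 0 passed in shSep15, shTR1 and shTR1/shSep15 against control cells, 6 against shSep15, 3 against shTR1 cells and 7 for the interaction term. Of all probe sets 2233, 777, 27, 1757, 382 and 3094 passed with it, in the same order. The 3 in shTR1 against control cells and the 3 in shTR1/shSep15 against shTR1 cells were all probe sets of Klf6. In that fit Klf6 1459718_x_at in shSep15 against control cells was 0.88, where all arrays gave -0.02. Arrays that fit the lines worst were the ones removed or down-weighted, which narrows the spread by construction.

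With a replicate block, 0 of the 33 passed in each comparison and Klf2 in shTR1/shSep15 against shTR1 cells was 0.41 (adjusted p = 0.824). The numbers did not pair the arrays: same-numbered arrays correlated at -0.528 to 0.466 in their deviations from the line means, 8 of 24 pairs above 0.1. Klf2 in that comparison ran from 0.09 to 0.74 with 1 array left out, and adjusted p from 0.563 to 0.999 over 26 alternatives. Of 5240 values of single probe sets under the alternatives, 261 changed sign, none of them from a main difference above 1.11 in size.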
